A study of Rattus norvegicus with 3 samples.

Results

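Apoptosis regulators were read in rat brainstem on 3 Affymetrix arrays, 1 for each of the groups labelled Sham, TBI (traumatic brain injury) and Hand Acu (hand acupuncture). The members were 9 named genes: Bax, Bad, Bcl2l11, Apaf1 and Casp9, which promote apoptosis, and Bcl2, Bcl2l1, Mcl1 and Aven, which restrain it. A gene was taken from probe sets with exactly 1 gene symbol in the platform's probe table and was represented by the brightest of them over the 3 arrays. Of the 9 genes, 8 had such a probe set, with 17 probe sets between them, out of 14217 genes in all. Bax was not measured by this rule: its 1 probe set carries 2 symbols, so no value is given for it.

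All 3 groups were brainstem taken 1 h after modelling, frozen in liquid nitrogen, with tissue of 5 rats mixed and 6 µg of total RNA labelled. The mixing is read here as 1 pool for each array. The labels give no strain, age or sex. Nor do they say whether the Hand Acu rats were also injured, or where needles were placed. Each group is 1 array, so no test was run, no difference has a replicate error, and every comparison is between 3 pools of RNA.

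The members belong to the mitochondrial, or intrinsic, route of apoptosis. Proteins of the BCL2 family decide whether the outer mitochondrial membrane is opened. BH3-only proteins such as Bad and Bim (Bcl2l11) each antagonise some or all of the guardians Bcl-2, Bcl-xL (Bcl2l1) and Mcl-1. Freed effectors such as Bax form the pores. Cytochrome c that leaves the mitochondrion binds Apaf-1, which assembles into the apoptosome and activates the initiator caspase-9. Aven is a protein that binds both Bcl-xL and Apaf-1 and hinders the activation of caspases. Much of this route is set by phosphorylation, cleavage and binding of the proteins, which an RNA array does not measure.

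Signals are log2 values of the MAS5 method, which scales each array to a common mean. A signal that sits low is erratic under MAS5, so a floor was set at the median of the non-control probe sets, a mean log2 signal of 7.44. Of the 8 measured members, 6 lay at or above it: Bad, Apaf1, Casp9, Bcl2l1, Mcl1 and Aven. They were set against all 9241 genes at or above the floor. Over these genes the SD of the log2 difference was 0.20 for TBI minus Sham, 0.19 for Hand Acu minus TBI and 0.21 for Hand Acu minus Sham, with medians of 0.004, -0.002 and 0.004. Signals of different genes come from different probes and are not compared with each other.

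Members were chosen with earlier results of these data known, so shares of members set beside shares of all genes are description, not a test. Among the members, Aven stood out on the TBI array. It was the only member above the floor that was at least 1.5-fold apart between TBI and Sham, 1 of 6 members, where 1.55% of all genes above the floor were that far apart in either direction. In the other direction Apaf1 was the lowest of the 6, and Bcl2l1 was higher by about as much as Apaf1 was lower. All 3 anti-apoptotic members above the floor were higher on the TBI array than on the Sham array, where 51% of all genes were. The pro-apoptotic members went both ways, with Bad higher, Apaf1 lower and Casp9 almost level.

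**Figure D1:**
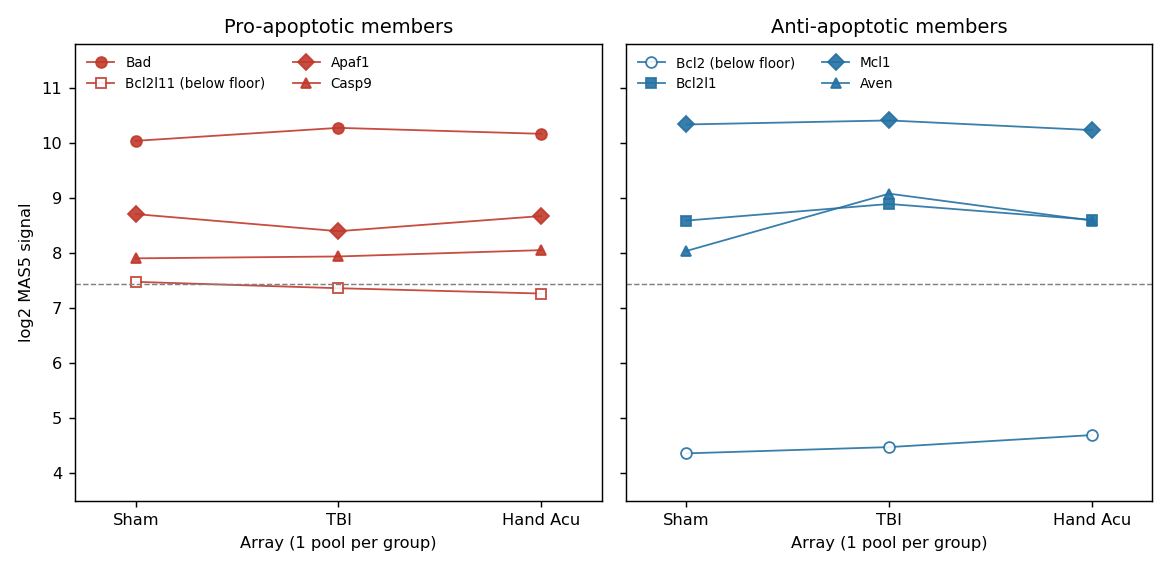
The log2 MAS5 signal of each measured member on the Sham, TBI and Hand Acu arrays, with pro-apoptotic genes on the left and anti-apoptotic genes on the right; each point is 1 array, open points are genes whose mean lies below the floor and the dashed line is the floor of 7.44. Aven climbs from 8.04 on Sham to 9.08 on TBI and lies at 8.59 on Hand Acu, while the other genes span at most 0.33 over the arrays.

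The genomic windows around the starts of Aven and Apaf1 are shown because these 2 genes lay furthest above and furthest below 0 in TBI minus Sham among the members above the floor. They run from 250 bases before to 50 bases after the start in RefSeq's GRCr8 assembly, at chr3:119753160-119753459 on the + strand for Aven and chr7:27466723-27467022 on the - strand for Apaf1, each read 5′ to 3′. Capitals mark GGGCGG (the GC box) and TGACG (the core of the cAMP response element) on either strand.
Aven: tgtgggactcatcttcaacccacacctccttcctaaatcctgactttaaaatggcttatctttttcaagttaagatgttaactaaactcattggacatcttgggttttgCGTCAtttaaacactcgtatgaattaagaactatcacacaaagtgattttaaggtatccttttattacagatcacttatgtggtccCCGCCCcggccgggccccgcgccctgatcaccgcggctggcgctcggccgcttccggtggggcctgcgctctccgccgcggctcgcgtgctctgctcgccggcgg
Apaf1: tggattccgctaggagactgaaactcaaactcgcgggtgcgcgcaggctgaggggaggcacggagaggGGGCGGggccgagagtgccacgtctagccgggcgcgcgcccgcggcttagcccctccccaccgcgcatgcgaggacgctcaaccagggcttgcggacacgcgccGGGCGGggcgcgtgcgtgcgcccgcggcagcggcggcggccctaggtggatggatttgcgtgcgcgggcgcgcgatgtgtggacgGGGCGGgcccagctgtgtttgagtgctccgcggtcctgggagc
Aven's window held 1 GC box and 1 TGACG, and that of Apaf1 held 3 GC boxes and no TGACG. Of 33469 windows of 300 bases in the same table, 33.1% held GGGCGG and 21.2% held TGACG. Neither window held the full element TGACGTCA (1.83% of windows, and it contains TGACG), the AP-1 motif TGANTCA (7.33%), the E-box CACGTG (6.42%) or TATAAA (14.2%), and only Aven's held CCAAT (37.5%). GC content was 52.3% for Aven and 73.7% for Apaf1, beside a median of 51.7% over all windows. These matches describe letters and show no binding.

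Of the anti-apoptotic members, Aven read 8.04 in log2 signal for Sham, 9.08 for TBI and 8.59 for Hand Acu. The TBI array was highest and the Hand Acu array lay between the others. TBI minus Sham was 1.04, or 2.06-fold, the fifth highest among 9241 genes (rank 5), where 0.0649% of genes were at least 2-fold higher. Genes above the floor were split by mean signal into 10 groups of equal size, and the SD of that difference in Aven's group, called genes of like signal below, was 0.24. Aven's difference was 4.30 times that SD. Because Aven was chosen as a member with earlier results of these data known, its rank and this multiple describe its value and test nothing. Hand Acu minus TBI was -0.49 (1.40-fold lower) and Hand Acu minus Sham was 0.55 (1.47-fold higher), neither reaching 1.5-fold.

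Aven's other probe set, well below the floor, showed the same order of arrays, with 4.90 on Sham, 5.59 on TBI and 5.43 on Hand Acu. Its TBI minus Sham was 0.69, or 1.62-fold, smaller than that of the brighter probe set. Over the 15521 non-control probe sets below the floor the SD of TBI minus Sham was 1.05, so a difference of this size is within the spread at that level. It is a further reading of the same pools, not a replicate sample.

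Bcl2l1 encodes Bcl-xL, the guardian most prominent in mature neurons, and by alternative splicing also a short form that promotes death. Its signal was 8.59 on Sham, 8.89 on TBI and 8.61 on Hand Acu. The TBI array stood above both others, which differed by 0.01. TBI minus Sham was 0.30 (1.23-fold) and Hand Acu minus TBI was -0.29 (1.22-fold lower), which is 1.25 and 1.31 times the SD among genes of like signal. Its 2 dimmer probe sets, both below the floor, also had their highest value on the TBI array: TBI minus Sham was 0.03 in one and 0.76 in the other. They disagreed on Hand Acu minus Sham, at -0.30 and 0.31. No probe set was assigned to a splice form here.

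Mcl1 encodes a guardian whose RNA and protein are both short-lived. Its signal was 10.34 on Sham, 10.41 on TBI and 10.24 on Hand Acu. The 3 arrays lay within 0.18 of each other, with TBI the highest. Hand Acu minus TBI was -0.18, 1.24 times the SD of 0.14 among genes of like signal, and TBI minus Sham was 0.07. Mcl1 was the only member with a second probe set above the floor. That probe set gave 8.11, 8.33 and 8.13 in the same order of arrays, so TBI was again the highest, with differences of 0.22 for TBI minus Sham and -0.21 for Hand Acu minus TBI. For Hand Acu minus Sham the probe sets had opposite signs, -0.10 and 0.02.

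Bcl2, the founding member of the family, was far below the floor on its 1 probe set, at 4.36 on Sham, 4.48 on TBI and 4.69 on Hand Acu. The spread of 0.33 is on a signal of about 20.6 to 25.9 on the linear scale, which is too dim to read a direction from. With an offset of 50 added to the linear signal, Hand Acu minus Sham shrank from 0.33 to 0.10. A low signal here does not say that the transcript is absent, since probe sets differ in sensitivity.

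Of the pro-apoptotic members, Apaf1, the scaffold of the apoptosome, had 8.71 on Sham, 8.40 on TBI and 8.67 on Hand Acu. The TBI array was the low one and the other 2 differed by 0.04. TBI minus Sham was -0.31 (1.24-fold lower) and Hand Acu minus TBI was 0.28 (1.21-fold higher), 1.28 and 1.25 times the SD among genes of like signal. The dimmer probe set of Apaf1, below the floor, gave 6.28, 5.99 and 6.19, the same order of arrays. Its differences were -0.29 for TBI minus Sham and 0.20 for Hand Acu minus TBI, close to those of the brighter probe set. Over probe sets below the floor the SD was 1.05 in both comparisons, so differences of this size are within the spread at that level. The TBI array was the lowest of the 3 for 31.7% of all genes. Counted from the lowest, Apaf1 had rank 527 of 9241 in TBI minus Sham.

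Casp9, the initiator caspase that Apaf-1 activates, had 7.91 on Sham, 7.94 on TBI and 8.05 on Hand Acu. Sham was lowest and Hand Acu highest, by 0.15 (1.11-fold), which is 0.57 times the SD among genes of like signal. Its 2 dimmer probe sets, both below the floor, kept the same order of arrays with wider gaps: Hand Acu minus Sham was 0.48 and 0.94. The mean of the 3 probe sets gave 0.52. Between TBI and Sham, Casp9 was near level on its brightest probe set, at 0.03, while the dimmer ones gave 0.45 and 0.08.

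Bad, a BH3-only protein that is held inactive when phosphorylated, had 10.04 on Sham, 10.28 on TBI and 10.17 on Hand Acu. The order of arrays was that of Aven, with TBI highest. TBI minus Sham was 0.24 (1.18-fold), 1.44 times the SD of 0.16 among genes of like signal, and Hand Acu minus TBI was -0.11 (1.08-fold lower). It had 1 probe set. Bcl2l11, which encodes Bim, lay just below the floor at 7.48, 7.36 and 7.27. Its probe sets disagreed on every comparison: TBI minus Sham was -0.12 on the brightest and 0.30 and 0.82 on the others, and Hand Acu minus TBI was -0.10, 0.49 and -1.42. No direction is read for Bcl2l11.

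**Figure D2:**
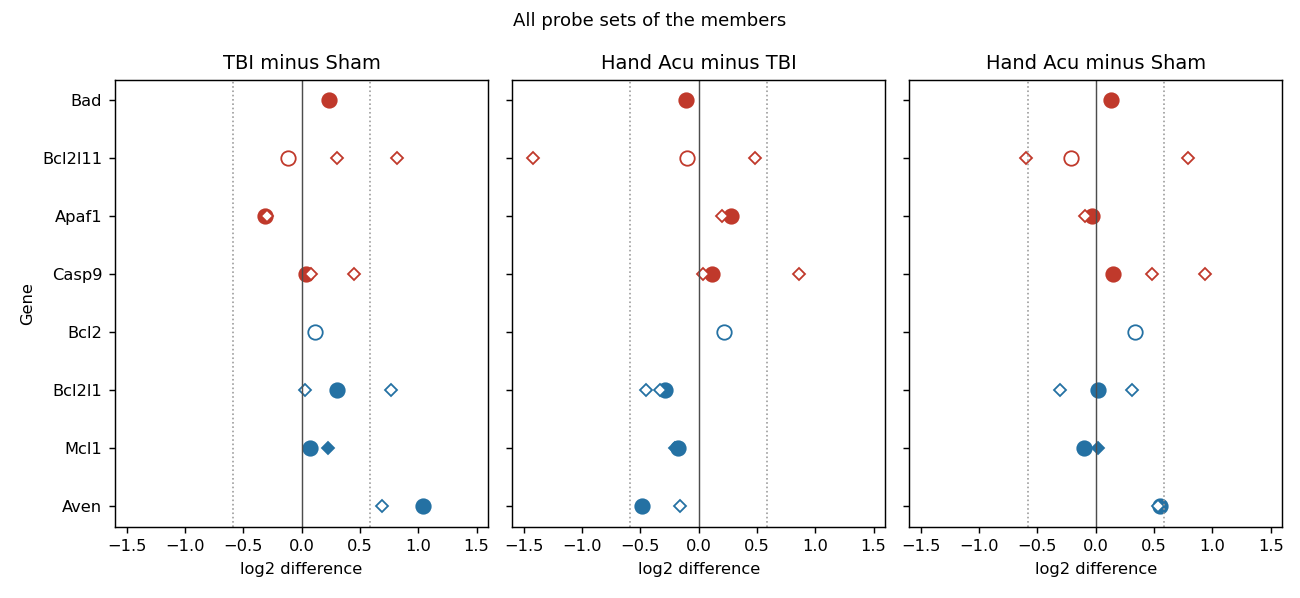
The log2 difference between arrays for all 17 probe sets of the measured members in the 3 comparisons; large circles are the brightest probe set of a gene, diamonds the dimmer ones, open symbols lie below the floor, red is pro-apoptotic, blue anti-apoptotic and dotted lines mark 1.5-fold. Both probe sets of Aven lie beyond 1.5-fold in TBI minus Sham (1.04 and 0.69), both of Apaf1 lie near -0.3, and those of Bcl2l11 scatter on both sides of 0.

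The probe sets of 1 gene were a check of reading error within the same pools. Of the 6 members with several probe sets, 5 had their highest value on the same array in all of them: TBI for Aven, Bcl2l1 and Mcl1, Sham for Apaf1 and Hand Acu for Casp9. The exception was Bcl2l11. Among all 3721 genes with several probe sets and the brightest above the floor, 31.1% had 1 highest array throughout, with 40.4% of those with 2 probe sets and 16.8% of those with 3. Over the 2073 genes with 2 probe sets above the floor, the SD between their TBI minus Sham differences was 0.27. That is close to the difference of 0.30 for Bcl2l1 and well under that of 1.04 for Aven. Neither gene is among the 2073, since their dimmer probe sets lie below the floor, so this SD does not give their own reading error.

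By group, the median log2 difference of the 3 anti-apoptotic members above the floor was 0.30 for TBI minus Sham, ranging from 0.07 for Mcl1 to 1.04 for Aven. That of the 3 pro-apoptotic members was 0.03, from -0.31 for Apaf1 to 0.24 for Bad. With so few genes each median is 1 gene's value, Bcl2l1 and Casp9 here. Without Aven the anti-apoptotic median was 0.19, and without Bad the pro-apoptotic median was -0.14. As unequal change between the TBI and Sham arrays, the difference of Apaf1 less that of Aven was -1.35 (2.55-fold), and less that of Bcl2l1 it was -0.61 (1.53-fold). That of Bad less that of Bcl2l1 was -0.07.

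The comparison of Hand Acu with TBI sets the acupuncture pool beside the injury pool. No member reached 1.5-fold, 0 of 6, where 1.21% of all genes did. All 3 anti-apoptotic members were lower on the Hand Acu array, where 50.7% of all genes were, with a median of -0.29 and a range from -0.49 for Aven to -0.18 for Mcl1. Of the pro-apoptotic members Apaf1 was higher by 0.28 and Casp9 by 0.11, Bad was lower by 0.11 on the log2 scale, and the median was 0.11. The TBI array enters this comparison and TBI minus Sham with opposite signs, so a value particular to that array appears in both. In all, 4 of the 6 members above the floor had their highest value on the TBI array, as did 33.4% of all genes.

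In Hand Acu against Sham, 0 of 6 members reached 1.5-fold, where 1.89% of all genes did, and Aven came nearest at 0.55. Its second probe set gave 0.54. The other 5 lay between -0.10 for Mcl1 and 0.15 for Casp9, each less than 0.8 times the SD among genes of like signal. The medians were 0.01 for the anti-apoptotic and 0.13 for the pro-apoptotic members. For Aven, Bad and Bcl2l1 the order was Sham below Hand Acu below TBI, which 18.7% of all genes had. For Apaf1 the Hand Acu array also lay between the others, but with TBI lowest and Sham highest.

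**Figure D3:**
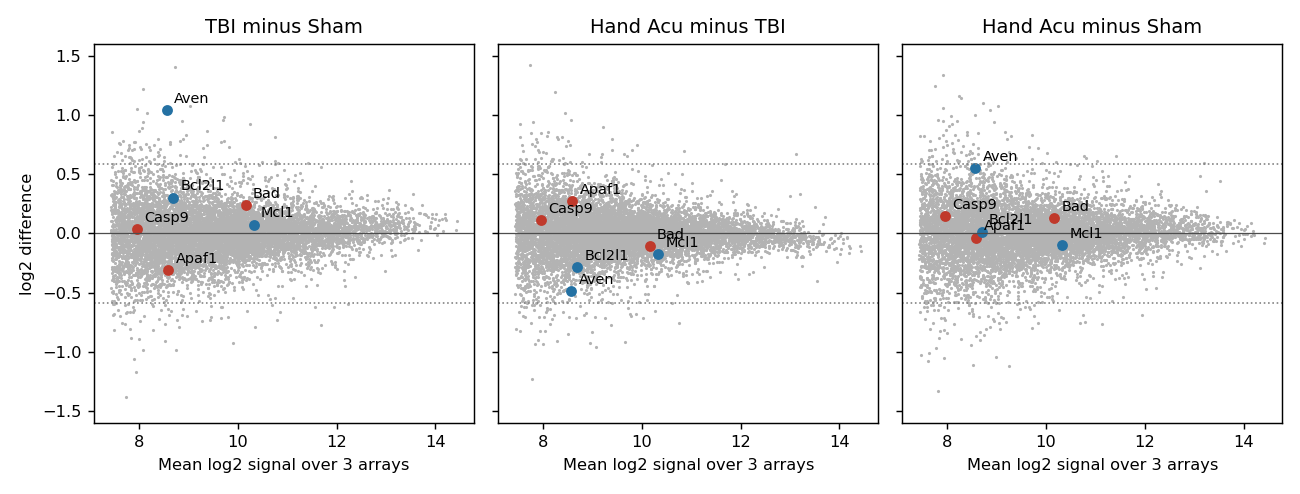
The log2 difference of each gene at or above the floor (grey, 9241 genes) against its mean log2 signal over the 3 arrays, with pro-apoptotic members in red, anti-apoptotic members in blue and dotted lines at 1.5-fold. In TBI minus Sham Aven sits at the upper edge of the cloud at 1.04, and the other 5 members lie inside it in all 3 comparisons.

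The genes whose pattern over the 3 arrays was most like that of Aven were found by the Euclidean distance between log2 signals, each gene centred on its own mean. With 3 arrays this is a description of few numbers. The nearest were Rgma, a repulsive guidance molecule (distance 0.08), Tmem255a (0.11), Tmem252 (0.13), the phosphodiesterase gene Pde10a (0.18) and Cbs, the cystathionine beta-synthase gene (0.22). Their TBI minus Sham differences ran from 0.78 for Cbs to 0.95 for Tmem255a, and their Hand Acu minus TBI differences from -0.58 for Tmem252 to -0.32 for Pde10a.

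Beyond the members, 51 further genes of apoptosis were read in 7 lists. Of these, 42 had a probe set of 1 symbol and 25 lay above the floor. None of the 25 was 1.5-fold apart in any comparison. Of all genes above the floor, 1.55% were for TBI minus Sham, 1.21% for Hand Acu minus TBI and 1.89% for Hand Acu minus Sham. With 25 genes, a count of 0 is near those shares. On the TBI array 18 of 25 were lower than on the Sham array and 7 higher, with a median of -0.10, where 49% of all genes were lower. The Hand Acu array was higher than TBI for 15 of 25, with a median of 0.05 (49.3% of all genes were higher), and lower than Sham for 18 of 25, with a median of -0.05 (49% of all genes were lower).

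In the BCL2 family, 6 further pro-apoptotic genes were above the floor. On the TBI array 4 of the 6 were higher than on Sham, near the 51% of all genes, with a median of 0.11. Bbc3, which encodes Puma, was higher by 0.31, with 8.02 for Sham, 8.33 for TBI and 8.26 for Hand Acu. Bid, the BH3-only protein that caspase-8 cleaves, gave 7.58, 7.85 and 7.38, so it was 0.26 higher on TBI than on Sham and 0.47 lower on Hand Acu than on TBI. Its other probe set, below the floor, had the opposite sign in all 3 comparisons, at -0.97 for TBI minus Sham and 1.36 for Hand Acu minus TBI. Hrk, a BH3-only gene of neurons, was 0.18 higher on TBI and 0.24 higher on Hand Acu than on Sham. Bok had a TBI minus Sham of -0.02 and a Hand Acu minus TBI of 0.11, and its other probe set had the opposite sign in both. The mitophagy receptor genes Bnip3 and Bnip3l stayed within 0.09 in every comparison, but a second probe set of Bnip3l above the floor gave -0.16 for TBI minus Sham and -0.12 for Hand Acu minus Sham. Bcl2l2, which encodes the guardian Bcl-w, was the only further anti-apoptotic gene above the floor and differed by -0.15 for TBI minus Sham, opposite to Bcl2l1.

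Of the proteins that mitochondria release, the 4 measured genes were all lower on the TBI array than on the Sham array, with a median of -0.11. Of all genes, 49% were lower. Endog, a nuclease, differed by -0.18, Diablo, which displaces inhibitors from caspases, by -0.13, Aifm1 by -0.10 and Htra2 by -0.08. Diablo was 0.29 higher on Hand Acu than on TBI. Both inhibitors of apoptosis above the floor were lower on TBI: Birc2, a ubiquitin ligase of TNF signalling, by -0.38 and Xiap, the direct inhibitor of caspases, by -0.10. Both were higher on Hand Acu than on TBI, by 0.22 and 0.10. Casp2 differed by -0.28 for TBI minus Sham and Dffa, the inhibitor of the apoptotic DNase, by 0.03.

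Of the death receptor pathway, 3 genes were above the floor and all were lower on the TBI array, as were 49% of all genes. Their median of -0.26 is Tnfrsf21's own value. Tnfrsf1a, the main TNF receptor, gave 8.59 for Sham, 8.18 for TBI and 8.26 for Hand Acu, a TBI minus Sham of -0.41. Tnfrsf21, death receptor 6, differed by -0.26, and its other probe set, also above the floor, by -0.10. Cflar, the decoy of caspase-8, differed by -0.13 and then by 0.31 for Hand Acu minus TBI. The other probe set of Cflar, below the floor, gave -0.24 and 0.07. Among 7 upstream regulators 5 were lower on TBI, with a median of -0.10, beside the same 49% of all genes. Akt2, a survival kinase of the family that phosphorylates Bad, differed by -0.39, Foxo3, a transcription factor that drives Bcl2l11, by -0.15 and the stress kinase gene Mapk9 by -0.11. Hand Acu minus TBI was 0.23 for Akt2, -0.07 for Mapk9 and -0.06 for Ddit3, the CHOP gene. Probe sets below the floor went the other way in TBI minus Sham for Xiap (0.02), for Foxo3 (0.48 and 0.98) and, in 1 of 3, for Akt2 (0.12). So did probe sets below the floor for Akt1 (0.46) and Mapk8 (0.59), and above it for Mapk8 (0.09) and Mdm2 (-0.13). Akt1, Mapk8 and Mdm2 each also had a dimmer probe set above the floor that kept the direction, at -0.13, -0.03 and 0.07. A further 17 genes were below the floor, among them Casp8, Fas and Birc3, and 9 had no probe set of 1 symbol in the table.

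**Figure D4:**
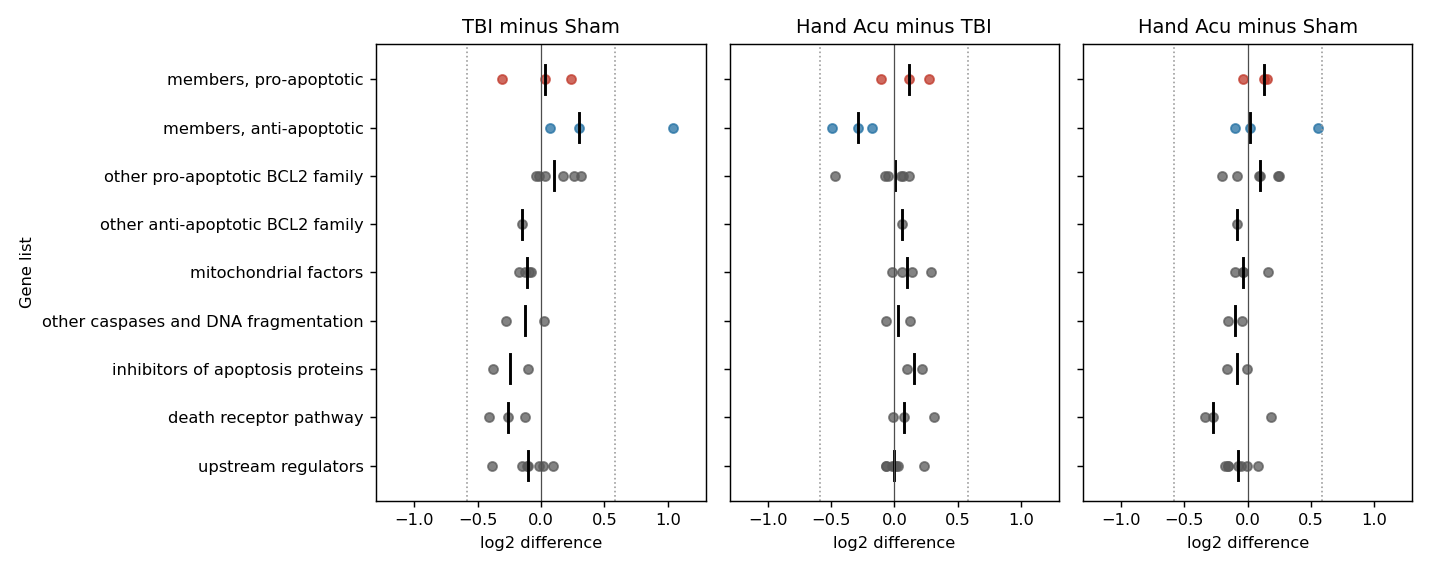
The log2 difference of every gene above the floor in the 2 groups of members and the 7 further apoptosis lists for the 3 comparisons; each point is a gene, the black bar is the list's median and dotted lines mark 1.5-fold. Aven at 1.04 in TBI minus Sham is the only point beyond a dotted line, and the lists of mitochondrial factors, inhibitors of apoptosis proteins and death receptors lie wholly below 0 in that comparison.

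Markers of tissue and cells moved with the arrays. TBI was below Sham for all 11 cerebellum markers that passed the floor, by 1.5-fold for 5, and the median was -0.55. Their summed linear signal was 29951 on Sham, 21918 on TBI and 21732 on Hand Acu. All 7 brainstem markers above the floor were higher on TBI, with a median of 0.24 and sums of 7264, 8759 and 8134. Of these, 1 was at least 1.5-fold higher: Hoxa5, by 1.22 (2.33-fold), more than Aven. It read 7.35 on Sham, 8.57 on TBI and 8.34 on Hand Acu, an order that Aven shared. Slc6a5, Glra1, Dbh and Slc6a2 were below the floor. All 4 blood cell genes above the floor were higher on TBI, with a median of 0.33 and sums of 11898, 14968 and 11440. Of 7 microglia markers 6 were higher, with a median of 0.26 and sums of 4363, 5036 and 4354. P2ry12 had the largest of these differences, 0.51, but its other probe set, also above the floor, gave -0.02. Aif1 was the marker counted as lower, at -0.11, and its other probe set, below the floor, gave 0.36. TBI was below Sham for all 4 endothelial markers (median -0.17), with sums of 3367, 2673 and 2647. Cldn5 carried most of that sum, with -0.44 for TBI minus Sham and -0.54 for Hand Acu minus Sham, while the other 3 lay between -0.05 and 0.03 for Hand Acu minus Sham and were higher on Hand Acu than on TBI. Higher on TBI were also 6 of 7 neuron markers, 5 of 8 astrocyte markers and 4 of 5 oligodendrocyte markers, with medians of 0.06, 0.05 and 0.07. The neuron exception was Rbfox3, at -0.31, and -0.26 on its other probe set. Stmn2 (-0.24), Mbp (-0.32), Mobp (-0.09) and Aqp4 (-0.07), counted as higher, were lower on another probe set above the floor. Slc1a2 (0.17), Slc1a3 (0.33) and Cnp (0.24), counted as lower, were higher on another such probe set. Of 4 forebrain markers above the floor 2 were higher on TBI, with a median of 0.13 and sums of 2369, 2787 and 2856. Ppp1r1b was 0.60 higher (1.51-fold), with 9.59 on Sham, 10.18 on TBI and 10.05 on Hand Acu, the order of arrays seen for Aven. Drd1 was 0.34 higher, and 0.37 on its other probe set, while TBI minus Sham was -0.56 for Neurod2 and -0.08 for Neurod6. The ratio of a transcript's 3′ to 5′ probe sets, which grows with RNA breakage, did not move one way over the 3 control transcripts. For beta-actin it was 5.58 on Sham, 6.37 on TBI and 6.69 on Hand Acu, for Gapdh 1.25, 1.20 and 1.28, and for hexokinase 1.96, 1.90 and 1.17. The part of these in the members' differences was not tested, and in pooled tissue fewer cells of a type and less RNA per cell cannot be told apart.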

How the data were processed

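Total RNA of rat brainstem was measured on 3 arrays, 1 per group. The deposited values are log2 signals; per the submitters' processing notes they come from MAS5, whose version is not given in the sources used here. Raised to the power of 2, the mean after trimming 2% at each end was 500.0 on every array, from which log base and scaling were inferred. Neither detection calls nor scanner files were used here.

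Of 31042 non-control probe sets, 20826 had 1 symbol in the 2016 platform table, 436 had several and 9780 had none. All 8 measured members matched a RefSeq table of GRCr8 by gene identifier, and promoter windows came from RefSeq. Differences of log2 signals were taken as deposited, with thresholds of 1.5-fold and 2-fold. The number of arrays limits the precision, and no test was run. All 9 members were to be named, with up to 3 genes of each further list per comparison with the largest difference and the 5 genes nearest to the widest-ranging member; others were named after their values were seen. Members and lists were chosen with earlier results of these data known. Alternatives were quantile normalization, median centring, an offset of 50, the mean of all probe sets, a higher floor (9.25), no floor and a 2-fold threshold. Leaving out each member, and counting probe sets, were alternatives chosen after seeing the data. The software was matplotlib 3.10.9, pandas 2.3.3 and numpy 2.4.6 under Python 3.11.15. The log2 difference was checked on simulated arrays with known fold changes and a common SD for all genes, which checks the arithmetic only. The 1.5-fold call was applied to the same arrays, but no rate of recovery was required of it. The other steps were not tested in this way.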

Additional observations from a re-analysis of the deposited data

How the results depend on the processing

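Quantile normalization, median centring and the offset of 50 moved no group median by more than 0.1 and left the counts at 1.5-fold as they were, as did the 2-fold threshold and the count over probe sets above the floor. Aven stayed higher on TBI than on Sham in all 4 alternatives of scaling, offset and probe set, between 0.87 and 1.05. The mean of all probe sets took Aven, Apaf1, Casp9 and Bcl2l1 below the floor and the higher floor excluded the same genes, so under each only Bad and Mcl1 remained, the medians are those 2 genes' own values, and there were 0 members at least 1.5-fold apart for TBI minus Sham. With the mean of all probe sets, the pro-apoptotic median was 0.24 for TBI minus Sham and -0.11 for Hand Acu minus TBI, and the anti-apoptotic median was 0.15 for TBI minus Sham. With the higher floor, the pro-apoptotic median was 0.24 for TBI minus Sham and -0.11 for Hand Acu minus TBI, and the anti-apoptotic median was 0.073, -0.18 and -0.10 for TBI minus Sham, Hand Acu minus TBI and Hand Acu minus Sham. With no floor, the pro-apoptotic median was 0.0090 for Hand Acu minus TBI and the anti-apoptotic median 0.17 for Hand Acu minus Sham. The pro-apoptotic median for TBI minus Sham was -0.14 without Bad and 0.14 without Apaf1, and without Apaf1 it was 0.0033 for Hand Acu minus TBI. The anti-apoptotic median for TBI minus Sham was 0.56 without Bcl2l1, 0.67 without Mcl1 and 0.19 without Aven. For Hand Acu minus Sham it was 0.23 without Bcl2l1 and 0.28 without Mcl1, and for Hand Acu minus TBI -0.39 without Mcl1. These settings change which genes enter a median of 3. No paired analysis was possible because each group is 1 array. Signals near or below the floor limit what can be read for Bcl2 and Bcl2l11.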
